A study of Mus musculus with 6 samples.

Results

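The Ms4a genes encode mostly small proteins that cross the membrane several times. Many of them, though not all, sit in the plasma membrane of blood cells beside other receptors. From the deposited gene table, 10 of them were taken by symbol: *Ms4a4a*, *Ms4a4b*, *Ms4a4c*, *Ms4a4d*, *Ms4a6b*, *Ms4a6c*, *Ms4a6d*, *Ms4a7*, *Ms4a8a* and *Ms4a14*. They are 10 of the 56748 genes in the table and 10 of its 21 genes with an Ms4a symbol. The family was selected on the measured fold change of *Ms4a7* between the genotypes, one of the strongest in the higher direction. The differences of the members between the genotypes are therefore given as a description, without p-values.

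RNA was measured in 6 libraries of cultured mouse osteocytes, the cells embedded in bone matrix. WT cells came from C57BL/6 mice, and cKO cells from mice with *Gsdmd* fl/fl alleles and a Cre recombinase driven by the *Dmp1* promoter, with 3 libraries of each. The study's methods give an age of 7 weeks for the mice from which osteocytes were taken. Cells were released from marrow-flushed long bones by trypsin, collagenase and EDTA, were not sorted, and were kept for 7 days in culture. The cells of all 6 libraries, WT included, were primed with 10 ng/mL LPS over 3 h and then exposed to 20 µg/mL aluminum hydroxide over 3 h. No unstimulated culture enters a comparison. The labels do not say whether the libraries of a genotype came from separate animals or cultures, so the spread between them may be technical.

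The family is best known from members of the lymphoid and mast cell lineages. *Ms4a1* encodes CD20, the B cell antigen targeted by therapeutic antibodies, and *Ms4a2* encodes the beta chain of the high-affinity IgE receptor. *Ms4a4a* and *Ms4a7* are expressed mainly by macrophages, and the MS4A4A protein associates with the fungal receptor dectin-1. In people, variants of the *MS4A* cluster are linked to the amount of soluble TREM2, a receptor of macrophages and microglia.

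Library totals lay between 39566835 and 49734046 counts. *Gsdmd*, the targeted gene, went against the labels: it was counted 609, 699 and 549 times in WT and 885, 937 and 1045 times in the libraries labelled cKO, over all its exons. *Xist* had 4, 0 and 2 counts in WT but 44817 to 51216 under the label cKO, and the Y-linked *Ddx3y* had 4033 to 5455 and 0. Sex therefore cannot be told apart from genotype in any value below. Markers of mature osteocytes were scarce: *Sost* and *Dkk1* had 0 counts in every library, *Mepe* had at most 2 and *Dmp1* at most 6, while *Pdpn* was at 234 CPM in WT and 193 CPM in the libraries labelled cKO. CPM are counts per 1000000 counts of the scaled library.

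All 21 Ms4a genes of the table lay in one run on chromosome 19 of mm39, from 10939657 to 11618215, a length of 679 kb with 38 genes of any kind. Among Ms4a genes, nearly all counts fell in the 304 kb from *Ms4a14* to *Ms4a6d*. *Ms4a14* (11278613 to 11291818) and *Ms4a7* (11298403 to 11313510) lie on the minus strand, followed on the plus strand by *Ms4a4a* (11352887 to 11370154), *Ms4a6c* (11446730 to 11459556), *Ms4a6b* (11493876 to 11508620) and *Ms4a4d* (11514165 to 11535831), and on the minus strand by *Ms4a6d* (11563968 to 11582213). *Ms4a4c* (11382134 to 11404610) and *Ms4a4b* (11420917 to 11444419), both with few counts, lie between *Ms4a4a* and *Ms4a6c* on the plus strand. The 11 Ms4a genes outside the 10 were silent at this depth. Of these, 10 had 0 counts in every library, among them *Ms4a1*, *Ms4a3* and *Ms4a5*, and *Ms4a2* had 4 counts in a single WT library. A count of 0 allows up to 3 counts, or 0.0605 to 0.0773 CPM in these libraries, and covers counting error only. The nearest protein-coding gene on the proximal side, *Ccdc86*, which encodes a nucleolar protein, was counted 876, 927 and 774 times in WT and 828, 705 and 904 times in the libraries labelled cKO. *Oosp2*, on the distal side, had 0 counts throughout.

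Start regions of 9 of the 10 members were found in the RefSeq promoter table (GRCm38.p6), and the 250 bases before each start were placed in GRCm39 by an exact match. *Ms4a6d* was not matched. Those of 6 members with enough counts to be tested are shown. These genes lie within the 304 kb given above, and *Ms4a4d* differs in direction from the others. In *Ms4a7*, *Ms4a4a*, *Ms4a14* and *Ms4a4d*, capitals mark the motifs searched. In *Ms4a6b* and *Ms4a6c*, capitals mark the longest stretch that both share.
Ms4a14, minus strand, chr19:11291819-11292068: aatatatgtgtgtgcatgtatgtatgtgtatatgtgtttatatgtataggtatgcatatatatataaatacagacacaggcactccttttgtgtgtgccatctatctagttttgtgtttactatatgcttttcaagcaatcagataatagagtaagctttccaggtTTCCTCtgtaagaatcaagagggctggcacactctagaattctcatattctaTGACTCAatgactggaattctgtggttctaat
Ms4a7, minus strand, chr19:11313511-11313760: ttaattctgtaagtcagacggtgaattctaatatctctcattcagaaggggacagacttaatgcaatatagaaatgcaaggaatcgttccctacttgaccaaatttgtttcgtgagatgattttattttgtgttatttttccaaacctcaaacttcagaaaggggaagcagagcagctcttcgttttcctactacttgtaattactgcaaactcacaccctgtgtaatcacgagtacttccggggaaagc
Ms4a4a, plus strand, chr19:11352602-11352851: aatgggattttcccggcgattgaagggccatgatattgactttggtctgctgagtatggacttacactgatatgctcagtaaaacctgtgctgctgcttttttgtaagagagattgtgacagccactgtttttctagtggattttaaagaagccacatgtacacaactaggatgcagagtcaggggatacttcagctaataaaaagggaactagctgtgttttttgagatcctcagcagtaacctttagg
Ms4a6c, plus strand, chr19:11446482-11446731: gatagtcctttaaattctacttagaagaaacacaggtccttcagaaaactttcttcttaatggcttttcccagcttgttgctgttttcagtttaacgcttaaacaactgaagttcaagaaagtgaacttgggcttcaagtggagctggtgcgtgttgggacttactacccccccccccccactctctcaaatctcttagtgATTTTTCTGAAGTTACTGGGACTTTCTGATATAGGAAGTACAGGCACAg
Ms4a6b, plus strand, chr19:11495673-11495922: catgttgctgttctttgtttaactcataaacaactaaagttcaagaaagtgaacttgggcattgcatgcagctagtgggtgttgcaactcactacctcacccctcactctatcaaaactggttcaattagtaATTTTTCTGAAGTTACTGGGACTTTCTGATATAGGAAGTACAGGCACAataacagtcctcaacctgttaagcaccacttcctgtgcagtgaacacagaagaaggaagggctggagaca
Ms4a4d, plus strand, chr19:11513908-11514157: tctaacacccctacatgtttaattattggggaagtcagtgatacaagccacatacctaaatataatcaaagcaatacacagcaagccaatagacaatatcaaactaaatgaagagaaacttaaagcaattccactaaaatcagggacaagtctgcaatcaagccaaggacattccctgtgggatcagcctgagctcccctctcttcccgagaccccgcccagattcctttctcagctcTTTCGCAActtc

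The start regions of *Ms4a6b* and *Ms4a6c* held an identical stretch of 48 bases, which ended 71 bases before the start of *Ms4a6b* and 2 bases before that of *Ms4a6c*. Among the 36 pairs of the 9 regions, *Ms4a4b* and *Ms4a4c* came next with 20 bases, and the other pairs shared at most 9. The RefSeq start of *Ms4a6b* lies 2047 bases inside the gene as given in the table, and that of *Ms4a4c* 2891 bases inside. 4 kinds of motif were searched on both strands: GAGGAA, the core bound by the myeloid factor PU.1, TGANTCA of AP-1, of IRF factors GAAA followed after any 2 bases by GAAA, and TTGCNNAA of C/EBP factors. GAGGAA was found in *Ms4a14*, at 79 bases before the start, and in *Ms4a4b* and *Ms4a4c*, that is in 3 of 9 regions where 23.1% of 27025 RefSeq start regions of that length held it. TGANTCA was found in *Ms4a14* and *Ms4a8a*, against 6.87% of all. TTGCNNAA was found in *Ms4a4d* alone, 5 bases before the start, against 9.55% of all, and the IRF motif in none, against 3.04%. The regions of *Ms4a7*, *Ms4a4a*, *Ms4a6b* and *Ms4a6c* held no match to these letters, and other forms of the motifs were not searched.

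Of the 10 members, 7 had enough counts to be tested among the 17146 genes fitted. *Ms4a6d*, *Ms4a7*, *Ms4a6c*, *Ms4a6b*, *Ms4a4a* and *Ms4a14* stood above WT by 8.49-fold to 16.7-fold in the libraries labelled cKO, whereas *Ms4a4d* was 8.60-fold lower. Calls required both an adjusted p-value under 0.05 (edgeR, quasi-likelihood, Benjamini-Hochberg over all genes fitted) and a log2 fold change of 1 or more in either direction. By that rule 6 members were called higher, where 6.56% of all tested genes were, and 1 was called lower, where 4.64% were. The libraries of the genotypes did not overlap for any of the 7, as was so for 25.3% of tested genes in the higher and 23.9% in the lower direction. Nothing is read from these counts, since *Ms4a7* was picked for this contrast. In bulk RNA, fewer cells of a type and less RNA per cell cannot be told apart.

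**Figure D1:**
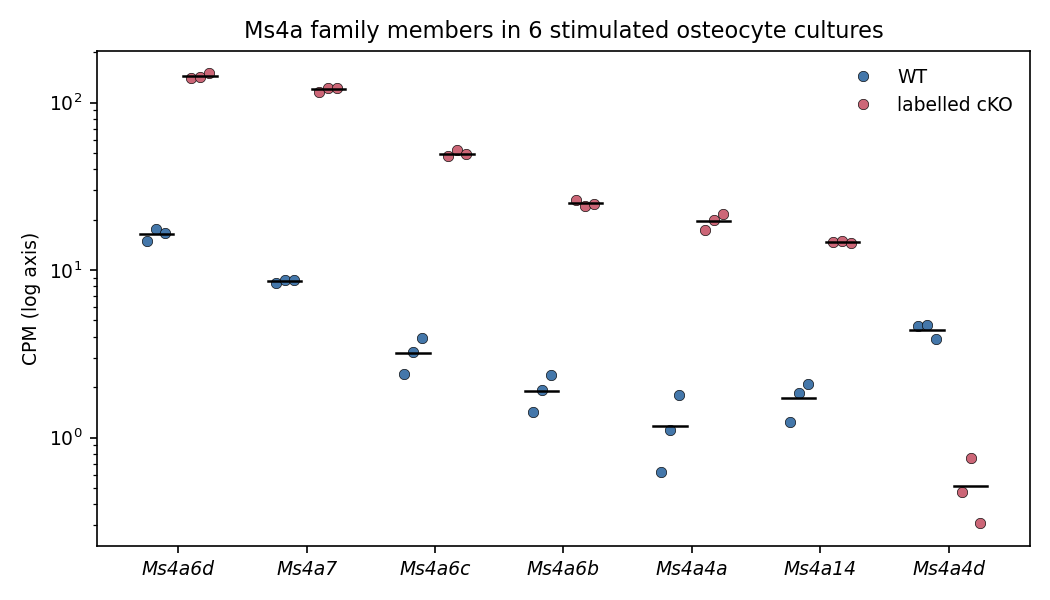
CPM on a log axis of the 7 members with enough counts to be tested, with each library as a point and the mean of 3 libraries as a bar. The libraries labelled cKO lie above WT for 6 members and below WT for Ms4a4d, with no overlap.

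*Ms4a6d* (ENSMUSG00000024679), whose product is found on myeloid cells, was the most abundant member. It was at 14.9, 17.5 and 16.6 CPM in the WT libraries and at 140.1, 142 and 149.7 CPM in those labelled cKO. The means were 16.3 ± 1.36 and 143.9 ± 5.14 CPM (SD, n = 3 each), a log2 fold change of 3.14 (standard error 0.063). Every library labelled cKO was far above every WT library, and the replicates lay close together in both genotypes.

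*Ms4a7* (ENSMUSG00000024672), the macrophage gene through which the family was picked, was at 8.42, 8.77 and 8.71 CPM in WT and at 115, 123 and 123 CPM in the libraries labelled cKO. The means were 8.63 ± 0.185 and 120.2 ± 4.16 CPM (SD, n = 3 each), with a log2 fold change of 3.80 (standard error 0.058), which stood at position 76 among the tested genes. The WT libraries differed by a coefficient of variation of 2.14%, where counting error alone, with each count taken as independent, gives 5.1% at these counts.

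*Ms4a6c* (ENSMUSG00000079419) and *Ms4a6b* (ENSMUSG00000024677), the pair with the shared stretch before their starts, lie next to each other among the genes with an Ms4a symbol. *Ms4a6c* was at 2.40, 3.24 and 3.92 CPM in WT and at 48.2, 51.8 and 49.0 CPM in the libraries labelled cKO, a log2 fold change of 3.97 (standard error 0.12). *Ms4a6b* was at 1.42, 1.93 and 2.37 CPM in WT and at 26.3, 24.2 and 24.9 CPM in the libraries labelled cKO, a log2 fold change of 3.73 (standard error 0.14). Both were low in WT, where the replicates spread by 23.9% and 24.9% of the mean, and tight in the libraries labelled cKO, where they spread by 3.79% and 4.22%. The antisense gene *BE692007* overlaps *Ms4a6c*. It was counted 15, 14 and 17 times in WT and 112, 72 and 106 times in the libraries labelled cKO, and because the strand setting of the counting is not stated, reads of the 2 genes may not have been separated.

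*Ms4a4a* (ENSMUSG00000101389), whose product associates with dectin-1, stood first among the tested members by log2 fold change, 4.08 (standard error 0.22), and had the widest spread in WT among them. It was at 0.622, 1.11 and 1.80 CPM in WT and at 17.3, 19.9 and 21.7 CPM in the libraries labelled cKO. The coefficient of variation in WT was 50.4%, above the 14.0% of counting error at 28 to 70 counts. With WT replicate 1 left out, its log2 fold change was 3.76, below 3.79 for *Ms4a6c* and 3.77 for *Ms4a7*. Its first position therefore rests on that library. *ENSMUSG00000120878*, listed as a separate noncoding gene, begins 51 bases beyond the end of *Ms4a4a* on the same strand. It was counted 11, 23 and 20 times in WT and 251, 218 and 286 times in the libraries labelled cKO, a log2 fold change of 3.86. It was named after its values were seen.

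*Ms4a14* (ENSMUSG00000099398) was the least abundant of the 6 higher members in the libraries labelled cKO. It was at 1.24, 1.85 and 2.09 CPM in WT and at 14.7, 14.8 and 14.5 CPM in the libraries labelled cKO, a log2 fold change of 3.09 (standard error 0.16). The coefficient of variation of its libraries labelled cKO was 1.32%, where counting error alone gives 4.01%. In WT, replicate 1 was the lowest library for all 6 higher members, and it also had the lowest sum of the macrophage markers described below, at 1188 CPM against 1286 and 1340 CPM in the other WT libraries. The part of that sum in the members' spread was not tested.

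*Ms4a4d* (ENSMUSG00000024678) went the other way. It was at 4.64, 4.72 and 3.86 CPM in WT and at 0.475, 0.754 and 0.308 CPM in the libraries labelled cKO, on 209, 234 and 150 counts against 20, 30 and 14. The means were 4.41 ± 0.472 and 0.513 ± 0.225 CPM (SD, n = 3 each), with a log2 fold change of -3.11 (standard error 0.29). The gene lies between 2 members of the opposite direction, 5.55 kb beyond the end of *Ms4a6b* and 28.1 kb before *Ms4a6d*.

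**Figure D2:**
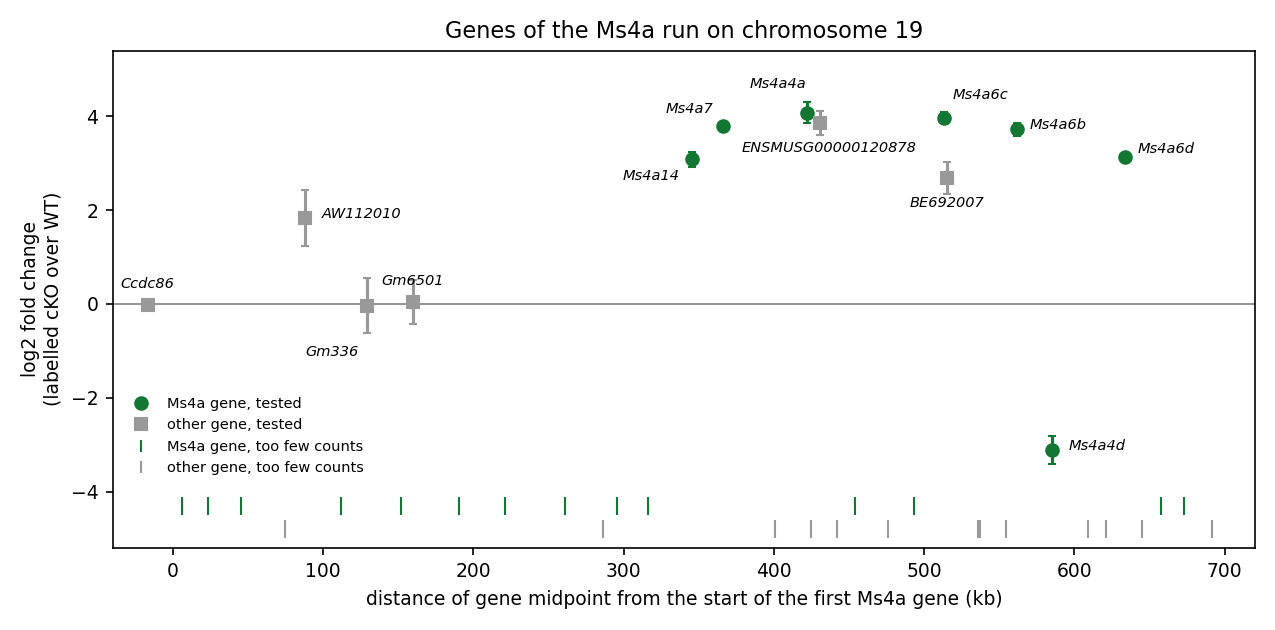
Log2 fold change (labelled cKO over WT, bars are standard errors) of each tested gene against the distance of its midpoint from the start of the first Ms4a gene, in kb, with ticks for genes with too few counts. Ms4a14, Ms4a7, Ms4a4a, Ms4a6c, Ms4a6b and Ms4a6d lie above 3, and Ms4a4d at -3.11 lies between Ms4a6b and Ms4a6d.

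The 10 members together summed to 33.6 to 39.5 CPM per WT library, against 363 to 383 CPM where the label was cKO, a 9.98-fold difference of the means. The other 3 members were barely detected. *Ms4a4b*, known from T cells, had 0 counts in every WT library and 2, 4 and 4 in those labelled cKO. *Ms4a4c* had 0, 8 and 0 counts in WT and 10, 9 and 7 in the libraries labelled cKO, so a single WT library fell within the range of the others. *Ms4a8a* had 0, 2 and 4 counts in WT and 10, 0 and 0 in the libraries labelled cKO. No fold is given for these 3, which did not pass the filter on low counts. Among the 17 genes of other names in the run, *AW112010*, a noncoding gene beside *Ms4a8a* that was named after its values were seen, was counted 3, 54 and 6 times in WT and 74, 66 and 64 times in the libraries labelled cKO, so one WT library was close to the others.

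Reads of related members could in principle be mixed. Over the transcripts of GENCODE M39, *Ms4a4a*, *Ms4a14* and *Ms4a8a* shared no stretch of 50 bases with any other gene. The share was 0.432% for *Ms4a7*, 2.77% for *Ms4a6d*, 3.48% for *Ms4a6b*, 4.51% for *Ms4a6c* and 4.96% for *Ms4a4d*. *Ms4a4c* had the highest share, 7.44%, mostly in common with *Ms4a4b*, and the rest was its own. The stretches of *Ms4a4d* that were not its own belonged to *Ms4a4b* and *Ms4a4c*, both of which were near 0 counts.

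Levels of different members were compared per length, as CPM per kb of the gene length in the table. In WT the order was *Ms4a6d* at 9.42, *Ms4a4d* at 2.91, *Ms4a7* at 1.94, *Ms4a6c* at 1.554, *Ms4a4a* at 1.41, *Ms4a6b* at 0.426 and *Ms4a14* at 0.425 CPM per kb. The libraries of *Ms4a7* and *Ms4a6c* overlapped, as did those of *Ms4a6c* and *Ms4a4a* and those of *Ms4a6b* and *Ms4a14*, so these neighbours were not separated. *Ms4a4a*, at 0.744 to 2.16 CPM per kb, also spanned the libraries of *Ms4a7*, at 1.89 to 1.97, so these were not separated either. In the libraries labelled cKO the order was *Ms4a6d* at 82.9, *Ms4a7* at 27.0, *Ms4a6c* at 24.2, *Ms4a4a* at 23.5, *Ms4a6b* at 5.61, *Ms4a14* at 3.61 and *Ms4a4d* at 0.339 CPM per kb. Among neighbours in this order, only *Ms4a6c* and *Ms4a4a* overlapped. The highest library of *Ms4a4a*, at 25.96 CPM per kb, also lay just above the lowest of *Ms4a7*, at 25.93. Of the family's summed level per kb, *Ms4a6d* held 52.1% in WT and 49.6% in the libraries labelled cKO. *Ms4a4d* held 16.1% in WT, where it was second, and 0.203% in the libraries labelled cKO, where it was last. When CPM were not divided by length, *Ms4a7*, at 8.63 CPM, stood above *Ms4a4d*, at 4.41 CPM, in WT. *Ms4a4a*, with a gene length of only 836 bases in the table, stood lower on that scale, at position 7 in WT and 5 in the libraries labelled cKO.

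**Figure D3:**
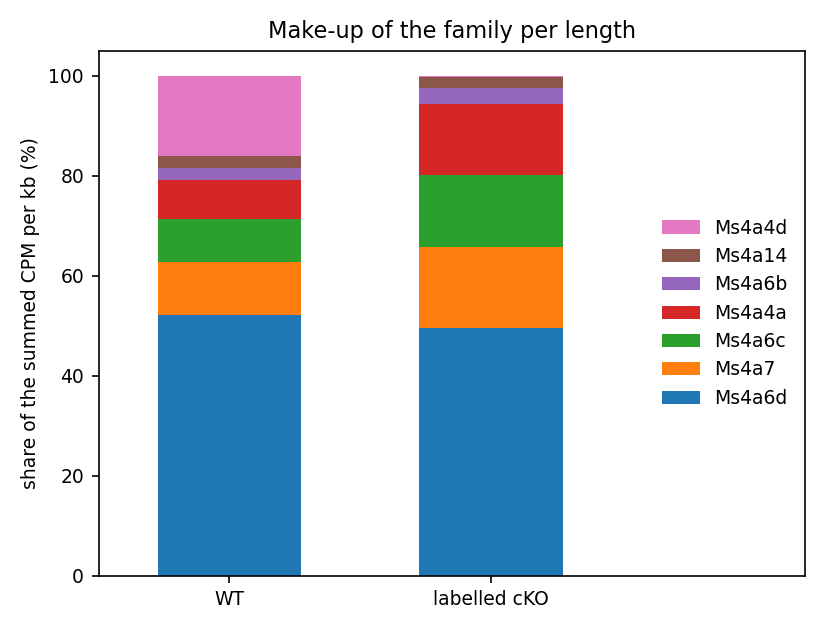
Share, in percent, of each tested member in the family's summed CPM per kb, by genotype label (mean of 3 libraries each). Ms4a6d makes up 52.1% and 49.6%, and Ms4a4d goes from 16.1% in WT to 0.203% in the libraries labelled cKO.

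Macrophage markers moved with the 6 higher members. All 13 tested genes of a list of 15 were called higher, where 6.56% of all tested genes were. Their median log2 fold change was 3.15 (from 1.73 to 4.42), against a median of 0.0077 over all tested genes. The other 2, *Cx3cr1* and *Cd163*, had too few counts. The top value, 4.42, was that of *Aif1*, with 6, 4 and 1 counts in WT. It had 60, 100 and 69 counts in the libraries labelled cKO and passed the filter only through these. With at least 10 counts required in every library, 12 markers were called higher. Summed over the list, WT libraries held 1188 to 1340 CPM and those labelled cKO 6264 to 6563 CPM, and none of the 15 was at 0 throughout. *Csf1r*, the receptor for macrophage growth factor, was at 26.1 CPM in WT and 234.9 CPM in the libraries labelled cKO, and *C1qa*, a complement subunit made by macrophages, at 9.66 and 121.8 CPM. The part of macrophage content in the members' differences was not tested.

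Set against the summed markers, the members did not keep a constant ratio, and neither did the single markers. The sum was 5.07-fold higher in the libraries labelled cKO. Single markers ran from 3.32-fold (*Cd14*) to 22.8-fold (*Aif1*, on few counts), with *C1qa* at 12.6-fold. *Ms4a7* was at 0.709, 0.682 and 0.650 CPM per 100 CPM of markers in WT and at 1.84, 1.88 and 1.87 in the libraries labelled cKO, 2.74 times the WT ratio. *Ms4a4a* had 3.34 times, *Ms4a6c* 3.09 times and *Ms4a6b* 2.62 times the WT ratio, and *Ms4a6d* and *Ms4a14* had 1.74 and 1.69 times. *Lyz2*, which encodes lysozyme, made up 77.6% of the marker sum in WT and 70.1% in the libraries labelled cKO, and was itself 4.58-fold higher in the latter. Without *Lyz2*, a denominator chosen after its share was seen, the ratios were 2.05 times for *Ms4a7*, 1.30 times for *Ms4a6d* and 1.27 times for *Ms4a14*. With *Csf1r* alone as the denominator, *Ms4a7* was at 1.548 times and *Ms4a4a* at 1.88 times the WT ratio, while *Ms4a6d* at 0.979 times and *Ms4a14* at 0.953 times overlapped between the genotypes. *Ms4a4d* had 0.349 CPM per 100 CPM of markers in WT and 0.00795 in the libraries labelled cKO.

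**Figure D4:**
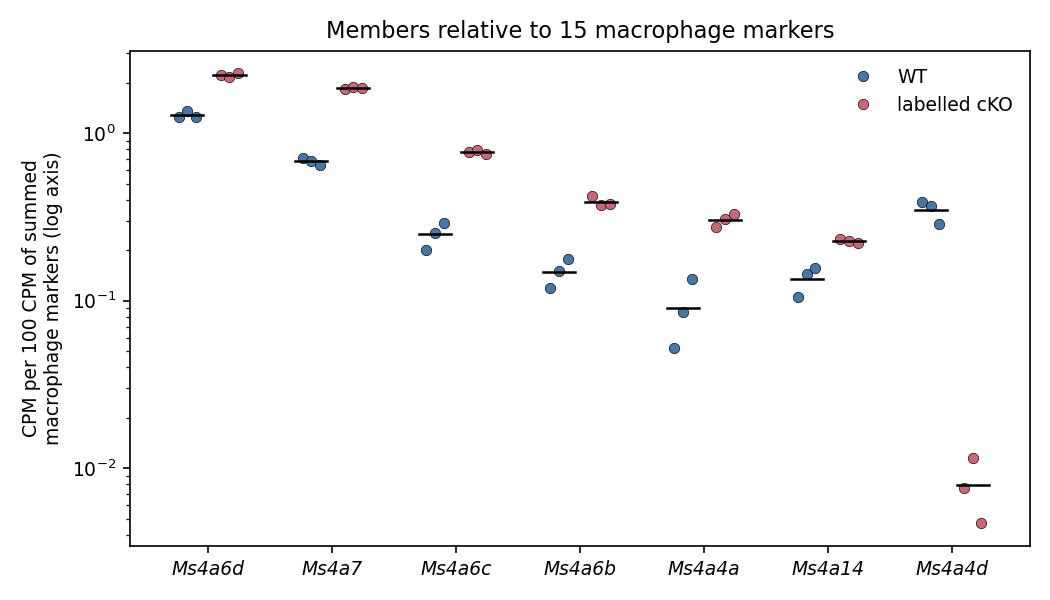
CPM of each tested member per 100 CPM of 15 summed macrophage markers, on a log axis, by library, with the mean of 3 libraries as a bar. For Ms4a7, WT lies at 0.650 to 0.709 and the libraries labelled cKO at 1.84 to 1.88, and Ms4a4d is lower in the latter.

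Among receptors, adapters and relatives named with Ms4a proteins, 6 of 11 were called higher and none lower, with 9 tested and a median log2 fold change of 1.96. Of all tested genes, 6.56% were called higher and 4.64% lower. *Clec7a*, which encodes dectin-1, was at 10.6 CPM in WT and 34.7 CPM in the libraries labelled cKO, a 3.27-fold difference that was smaller than that of *Ms4a4a*. Its downstream kinase *Syk* was 3.90-fold higher and the adapter *Card9* 8.14-fold higher. *Trem2* was at 17.4 and 100.3 CPM, and its signaling partner *Tyrobp* at 10.4 and 84.4 CPM. *Fcer1g*, the gamma chain that Fc receptors share, was at 13.9 CPM in WT and 91.1 CPM in the libraries labelled cKO, while *Fcer1a*, the IgE-binding chain that pairs with the *Ms4a2* product, had 0 counts in every library. *Tmem176a* and *Tmem176b*, relatives of the Ms4a genes on another chromosome, were at 118.6 and 156.9 CPM in WT and at 86.8 and 110.2 CPM in the libraries labelled cKO. Both were lower in the latter without overlap, but under the limit on the fold change. *Vsig4*, a complement receptor of tissue macrophages, had 0 counts in WT and 0, 4 and 12 in the libraries labelled cKO. *Tnfrsf18*, named with *Ms4a4b* in T cells, was at 6 to 23 counts per library.

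**Figure D5:**
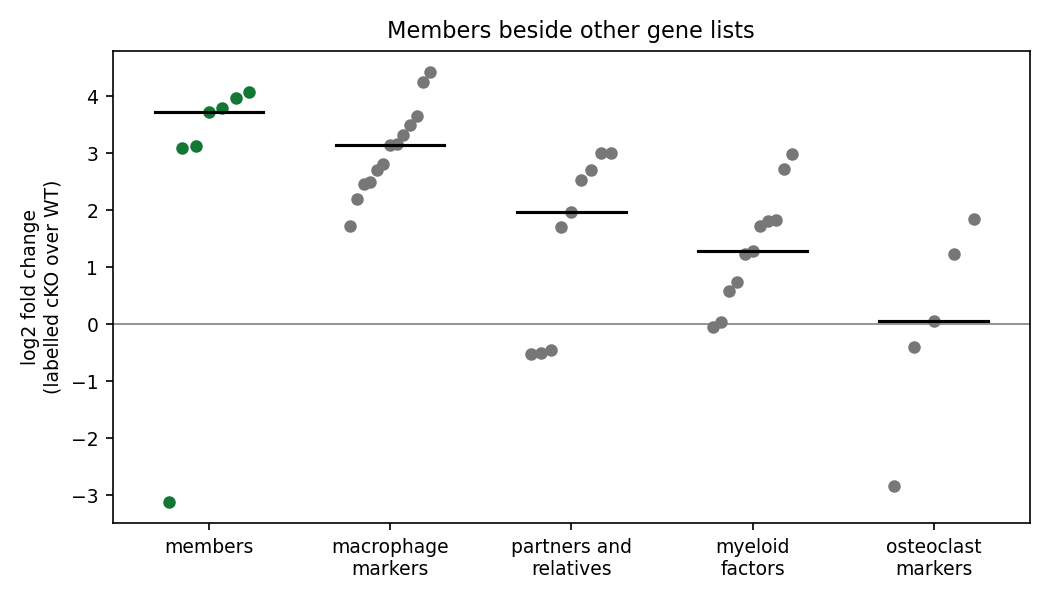
Log2 fold change (labelled cKO over WT) of each tested gene of the members and of 4 other lists, with the median of each list as a bar. The members' median is 3.73, with Ms4a4d apart at -3.11, and the macrophage markers' median is 3.15.

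Of 12 transcription factors of the myeloid lineage, 11 were tested, 7 were called higher and none lower, with a median log2 fold change of 1.29. Over all tested genes, 6.56% were called higher and 4.64% lower. *Spi1*, which encodes PU.1, was at 7.48 CPM in WT and 59.2 CPM in the libraries labelled cKO. Markers of other blood cells varied in level. Of 7 T cell markers, *Cd3d*, *Cd3e*, *Cd3g* and *Cd8a* had 0 counts in every library and *Cd4* at most 12, and the list summed to between 1.08 and 1.51 CPM (WT) and between 0.396 and 0.784 CPM (labelled cKO), with *Trac* called lower. The 5 B cell markers summed to at most 0.930 CPM in any library. Of 5 mast cell markers, 4 had 0 counts in every library and the list reached 0.0444 CPM. The 5 dendritic cell markers summed to 1.41 to 3.54 CPM, most of it *Zbtb46*, and *Flt3* had 0 counts throughout. The 6 neutrophil markers summed to between 4.59 and 7.86 CPM (WT) and between 10.1 and 11.2 CPM (labelled cKO). *Camp*, which encodes an antimicrobial peptide of granules, made up most of this, at 5.12 CPM in WT and 7.21 CPM in the libraries labelled cKO, without overlap and not called. *S100a8* was called higher, at 1.07 and 3.29 CPM, while *S100a9* had 0 counts throughout, *Ly6g* and *Mpo* at most 2 and *Elane* at most 10. The part of these cells in the members' differences was not tested. Among 7 osteoclast markers, *Acp5* and *Atp6v0d2* were called higher and *Mmp9* lower, with a median of 0.062, and the calcitonin receptor gene *Calcr*, a marker of mature osteoclasts, had 2 counts in all. *Ctsk* was at 96.6 CPM in WT and 73.0 CPM in the libraries labelled cKO, without overlap and not called. *Pdpn* was the one osteocyte marker tested. It was lower in the libraries labelled cKO without overlap and was not called.

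Among the 5 genes whose profile over the 6 libraries was most like that of *Ms4a7* were *Coro1a*, *Nxpe5*, *C1qa* and *Ncf4*. Likeness was the Euclidean distance between log2 CPM profiles centred on their mean, with a pseudocount of 0.1 CPM, and it was 0.20 for *Coro1a*, an actin regulator of blood cells, and 0.27 for *Ncf4*, which encodes a subunit of the phagocyte NADPH oxidase. *Coro1a* was at 1.73 CPM in WT and 25.4 CPM in the libraries labelled cKO. Within the family, *Ms4a6c* and *Ms4a6b* were closest to *Ms4a7*, at 0.50 each, and *Ms4a4d* farthest, at 8.27. The same measure, applied to *Ms4a4d* after its values were seen, named *Pde11a*, *Art3*, *Igf2bp3*, *Aqp5* and *Pdgfd*, at distances of 0.66 to 0.74. Of these, *Igf2bp3*, which encodes an RNA-binding protein, was at 6.87 CPM in WT and 0.925 CPM in the libraries labelled cKO. The 6 libraries fall into the 2 genotypes, so these distances mostly follow the fold change.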

How the data were processed

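The data were 6 RNA-seq libraries of stimulated cultured osteocytes, 3 labelled WT and 3 labelled cKO, with groups taken from the sample titles. Reads of 150 bp from both ends were trimmed by the authors, mapped to mm39 by HISAT2 2.0.5 and assigned to genes with featureCounts, and the authors deposited raw counts per gene without normalization. The release of featureCounts differs between the labels and the methods, which also name RSEM, and the strand setting is not given in the sources used here. The gene length in bases is a value of the deposited table. Small counts were mostly even (63.4% to 65.7% of counts from 1 to 10), so both mates of a pair may have been counted.

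Counts were fitted on the whole table with edgeR 4.0.16 in R 4.3.3: filterByExpr, which left 17146 of 56748 genes, TMM scaling, then glmQLFit and glmQLFTest on genotype alone, and Benjamini-Hochberg adjustment over all tested genes. Replicates of a genotype differed by more than sampling noise (chi-square statistic per gene of 4.80 to 13.9), and all 6 libraries were fitted separately. That statistic cannot tell separate animals or cultures from technical replicates, and counting both mates would raise it. On simulated data with 200 changed genes among 16893 tested, 194 were recovered and 0 others were called. The simulation gave all genes the same dispersion and all changed genes the same size of fold change. It held no difference in sex or cell content and no counting of both mates. Its recovery therefore does not carry over to these data. The alternatives were DESeq2 1.42.0, limma-voom (limma 3.58.1), other scalings, filters and limits, halved counts, a replicate block and each library left out. The members, the lists and the tests were chosen with earlier results of these data known. Named were all members, all other Ms4a genes, the listed partners and markers, *Gsdmd*, the protein-coding genes beside the run and the 5 genes most like *Ms4a7*. Values of some genes under this rule are not reported here.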

Additional observations from a re-analysis of the deposited data

How the results depend on the processing

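The counts of called genes (6 members higher, 1 member lower, 0 other Ms4a genes higher, 6 partners higher and 13 macrophage markers higher) stayed within 1.5 times their value under every alternative run: RLE scaling, library size only, no filter, at least 10 counts in every library, DESeq2, limma-voom, counts halved, the replicate block, no limit on the fold change, and each library left out in turn. Of these counts, the partners went to 7 with no filter and the macrophage markers to 12 with at least 10 counts in every library, and the others were unmoved. The 0 for the other Ms4a genes was fixed in advance. Of them, 10 had 0 counts throughout and *Ms4a2* only 4 in a single WT library. Replicate numbers are shared between the genotypes, but libraries with the same number did not deviate together (correlations of -0.0103 to 0.0023), and with the replicate block 6 members were again called higher and 1 lower. The log2 fold change of *Ms4a7* ranged from 3.77 to 3.83 over the alternatives, that of *Ms4a4a* from 3.76 to 4.48 and that of *Ms4a4d* from -3.49 to -2.84. Relative to *Csf1r* alone in place of the summed macrophage markers, *Ms4a6d* turned from 1.74 to 0.979 times and *Ms4a14* from 1.69 to 0.953 times the WT ratio, as *Csf1r* itself was 8.99-fold higher and the marker sum 5.07-fold higher. Without division by length, *Ms4a4d* went from position 2 to 3 and *Ms4a7* from 3 to 2 in WT, and *Ms4a4a* from 5 to 7 in WT and from 4 to 5 in the libraries labelled cKO. Ratios of the members to the markers depend on which markers are summed. The 3 libraries of a genotype limit the precision of every mean, and the 3 members with few counts cannot be placed at this depth.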
